A study of Homo sapiens with 22 samples.

Results

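CTCF sites that stayed bound throughout PMA treatment and lay in acetylated chromatin were examined in K562, a human leukemia cell line with erythroid features. A site was a region of the deposited CTCF table on chromosomes 1 to 22 or X that overlapped, by at least 1 bp, a CTCF peak in each of the 6 CTCF libraries. It also had to overlap an H3K27ac peak in both libraries of at least 1 of the 3 time points. The sites were thus chosen by measured CTCF and H3K27ac peaks, which serve below only as description. Of 66168 CTCF regions, 65346 lay on these chromosomes, 12691 had a CTCF peak in every library, and 2575 of these, or 20.3%, met the acetylation criterion. These 2575 acetylated stable sites are compared below with 9165 stable sites that overlapped no H3K27ac peak in any library, called unacetylated stable sites. That name means only that no listed peak overlapped them, not that the mark was absent. Of the 9165, 586 overlapped a region of the deposited H3K27ac table. The remaining 951 stable sites overlapped H3K27ac peaks, but never in both libraries of a time point.

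All groups were wild-type K562 cells given 25 nM PMA, a phorbol ester under which the line takes on megakaryocyte-like features, for 0, 6 or 72 h, and all were fixed with formaldehyde. The assay, CNR in the sample titles, was read as CUT&RUN: a nuclease tethered by an antibody releases DNA beside the bound protein or mark. The 22 libraries fall into 11 groups of 2. CTCF, H3K27ac and Jun were profiled at each time, but Rad21 only at 0 and 72 h. The labels do not say whether the 2 libraries of a group came from separate cultures, so p-values measure only the spread between these libraries, which may be technical.

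CTCF is a zinc-finger protein that binds DNA in an oriented way and halts cohesin, the ring complex that extrudes chromatin loops. Rad21 is the cohesin subunit that closes the ring. H3K27ac marks active promoters and enhancers, and Jun is a subunit of AP-1, a transcription factor that phorbol esters activate through protein kinase C. Stable CTCF sites are known mainly as loop anchors and boundaries, and those within acetylated chromatin also lie beside promoters and enhancers, so both kinds of element occupy the same stretch of DNA. In these bulk libraries a change in the share of cells bound and a change in the signal per bound cell cannot be told apart.

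The DNA of 5 of these sites is shown because each carries, beside a gene start and close to the CTCF summit, the letters of the CTCF core motif (CCA, any 2 bases, AG, any 2 bases, GGC), and because each was acetylated at different times. The capitals mark the core, with 20 bases on each side, written 5′ to 3′ on the strand that holds the core; the sequences come from RefSeq promoter windows on GRCh38.p14.
KATNBL1: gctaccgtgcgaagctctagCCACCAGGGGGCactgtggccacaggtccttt
PRAME: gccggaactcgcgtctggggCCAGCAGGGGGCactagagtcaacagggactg
C1QBP: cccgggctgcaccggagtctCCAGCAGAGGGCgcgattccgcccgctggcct
KIF1B: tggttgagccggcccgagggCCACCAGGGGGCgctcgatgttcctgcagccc
EHD2: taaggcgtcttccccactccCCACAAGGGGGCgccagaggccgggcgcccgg
The KATNBL1 stretch (chr15:34210172-34210223, minus strand) lay upstream of a gene for a katanin-like protein, with its core 18 bp from the CTCF summit, and was acetylated at 0 and 6 h. The PRAME stretch (chr22:22559279-22559330, plus strand), by a tumor antigen gene transcribed on the minus strand, had its core 22 bp from the summit and was acetylated at 0, 6 and 72 h. The C1QBP stretch (chr17:5439204-5439255, minus strand), by the gene of a mitochondrial protein, had its core 4 bp from the summit and was acetylated at 0 and 72 h. The KIF1B stretch (chr1:10210327-10210378, plus strand), by a kinesin motor gene, had its core 40 bp from the summit and was acetylated at 6 and 72 h. The EHD2 stretch (chr19:47713292-47713343, plus strand), by a gene of membrane trafficking, had its core 27 bp from the summit and was acetylated at 72 h only. The CCA, AG and GGC of the core are shared by the choice of motif, and the KATNBL1 and KIF1B cores were identical. Here and below, acetylated at a time means only that both H3K27ac libraries of that time had a peak there, which counts of the mark can contradict. At EHD2 H3K27ac measured 11.6 and 9.75 CPM (counts scaled to a common library total) at 0 h, 17 and 17.4 CPM at 6 h and 13.3 and 15.7 CPM at 72 h, so the mark was present at every time. At C1QBP it measured 24.6 and 23.2 CPM at 0 h, 17.1 and 18.9 CPM at 6 h and 9.37 and 9.94 CPM at 72 h, so the level at 6 h lay above that at 72 h although the peak criterion was met only at the latter.

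Across promoter windows, which run from 250 bases before to 50 bases after a gene start, the core letters on either strand were present in 83 of 875 windows touched by acetylated stable sites (9.49%). They were present in 37 of 214 windows touched by unacetylated stable sites (17.3%) and in 844 of all 34961 windows (2.41%). The AP-1 letters TGANTCA, searched on both strands, were present in 4.11% of the windows at acetylated stable sites, 6.07% at unacetylated ones and 7.68% of all windows. Windows at acetylated stable sites were also richer in G and C, with a median of 65.3% against 56.7% and 58.7%, and held a median of 26 CpG dinucleotides against 11 and 14. A match is a description of letters, not evidence of a bound site. Of the 67 acetylated stable sites with core letters inside both the region and a window, 17 had them within 50 bp of the CTCF summit.

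Region counts summed to between 2553677 and 6068421 in the CTCF libraries and between 12634261 and 27266241 in the H3K27ac libraries. The Jun libraries summed to between 4766421 and 18883962, and the Rad21 libraries to between 4398797 and 7285286. The median count at an acetylated stable site was 80 to 187 per CTCF library, 159 to 261 for H3K27ac, 34 to 136 for Jun and 61 to 91 for Rad21. Among counts in all regions, the mitochondrial share was 24.0% and 27.7% in the Jun libraries of 0 h, 21.3% and 18.1% in those of 6 h and 9.07% and 8.58% in those of 72 h. For Rad21 it was 34.1% and 24.8% at 0 h and 30.6% and 30.1% at 72 h. CTCF 6 h replicate 1 had the fewest CTCF peaks, 18043 against up to 40805 in another library. H3K27ac peaks in both 0 h libraries lay over 5 of 8 K562 marker genes, 2 of 4 T cell genes (CD3D and CD2), 2 of 4 B cell genes, 4 of 4 epithelial genes, 0 of 4 hepatocyte genes and 0 of 3 muscle genes. Some rows may have been left out of the files used here, so a marker without a peak cannot be read as unacetylated. The part of other cell types in the results was not tested.

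Members just inside and just outside the thresholds had the following values. The 489 sites with exactly 2 H3K27ac libraries had a median H3K27ac level of 4.74 CPM, against 2.09 CPM at the 951 sites outside the rule and 14.4 CPM over all acetylated stable sites. A further 872 acetylated regions had a CTCF peak in 5 of 6 libraries, and 545 of them lacked it in CTCF 6 h replicate 1. Their median CTCF level was 15.5 CPM, against 29.9 CPM at the sites kept. The weakest CTCF peak of any site kept had a −log10 q of 2.82.

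Acetylation followed 7 patterns in time. Both H3K27ac libraries had a peak at 0, 6 and 72 h at 1228 sites, which made this the most frequent pattern. It was followed by 72 h only at 594 sites, 0 h only at 203, 6 and 72 h at 194, 0 and 72 h at 182, 0 and 6 h at 87, and 6 h only at 87. The H3K27ac lists held 42125 and 42852 peaks at 0 h and 65267 and 66147 at 72 h, so the sizes of these patterns show no direction of change.

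The CTCF summit lay inside the acetylated peaks at most sites. It was inside the peaks at 1756 sites (68.2%) and outside them at 819 (31.8%), and the peaks covered a median of 52.6% of the CTCF region. Within the wider H3K27ac region of the deposited table, whose median width was 1162 bp at these sites and 621 bp over all H3K27ac regions, 694 summits fell in the middle one of 3 equal lengths and 1444 in the outer ones. The other 437 summits lay beyond the region's edge. The median distance from summit to nearest edge was 150 bp, with quartiles of 54 and 382 bp. The summits of 1 site in different CTCF libraries spread over a median of 117 bp, so the position of single summits relative to an edge is not resolved at the smallest distances. By pattern, the summit was inside the peaks at 83.1% of the sites acetylated at 0, 6 and 72 h, at 50.7% of those acetylated at 72 h only and at 41.9% of those acetylated at 0 h only.

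**Figure D1:**
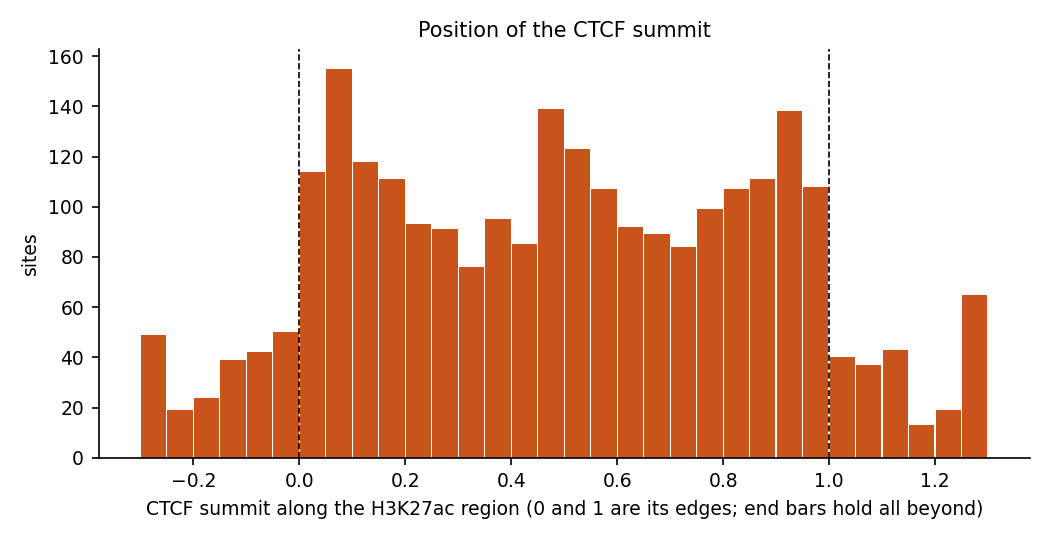
Number of acetylated stable CTCF sites by the position of the CTCF summit along the overlapping H3K27ac region, where 0 and 1 on the horizontal axis are its edges and the end bars hold all sites beyond the plotted range. Of 2575 summits, 694 fell in the middle one of 3 equal lengths and 437 beyond an edge.

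Acetylated stable sites lay at gene starts more often than other CTCF sites. Of the 2500 sites on chromosomes covered by the promoter table, 654 (26.2%) overlapped a promoter window, against 2.17% of unacetylated stable sites and 9.87% of all CTCF regions. The share was 42.3% for sites acetylated at 0, 6 and 72 h, and 8.57% for sites acetylated at 72 h only. Median region width was 729 bp at acetylated stable sites, 636 bp at unacetylated ones and 400 bp over all CTCF regions. The part of width in the overlap shares here and below was not tested. Nor was the part of choosing sites by H3K27ac, a mark of promoters. The median distance to the nearest gene start was 10436.5 bp against 24852 bp at unacetylated stable sites. A gene span held 70.1% of the sites against 59.3% of unacetylated ones. Among stable sites, the acetylated share ran from 8.33% (16 of 192) on chromosome 13 to 32.2% (182 of 565) on chromosome 19.

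Rad21 was not used to choose the sites, and its peaks were more frequent here than at unacetylated stable sites in every Rad21 library. At 0 h, 83.8% and 83.5% of acetylated stable sites overlapped a Rad21 peak in replicates 1 and 2, and at 72 h 79.8% and 69.0% did. Unacetylated stable sites had shares of 64.4% and 64.6% at 0 h, then 40.0% and 29.7% at 72 h. Both libraries had a peak at 1961 acetylated stable sites (76.2%) at 0 h and at 1622 (63.0%) at 72 h, and at 50.4% and 21.4% of unacetylated ones. At the 951 stable sites with H3K27ac peaks outside the rule these shares were 71.8% and 51.3%, nearer to the acetylated than to the unacetylated stable sites. Over all CTCF regions they were 24.2% and 20.3%. The Rad21 lists themselves held 34680 and 59005 peaks at 0 h and 33048 and 25687 at 72 h, and the part of these numbers in the fall was not tested.

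Rad21 peaks were also more frequent at acetylated sites within ranges of CTCF signal. Stable sites of both kinds were ranked together by mean CTCF CPM and cut into 4 equal groups. In the lowest group, 55.5% of 337 acetylated sites had Rad21 peaks in both 0 h libraries, against 24.6% of 2598 unacetylated sites, and at 72 h the shares were 42.4% and 5.93%. In the highest group they were 88.3% of 1125 and 76.5% of 1810 at 0 h, and 76.8% and 47.3% at 72 h. The 2 groups between had 62.5% against 46.8% and 75.8% against 63.0% at 0 h. Acetylated sites were thus above unacetylated sites in all 4 groups at both times, and the difference was wider at 72 h than at 0 h in each. CTCF levels were not matched within the highest group, where the median was 48.2 CPM at acetylated and 41.5 CPM at unacetylated sites.

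**Figure D2:**
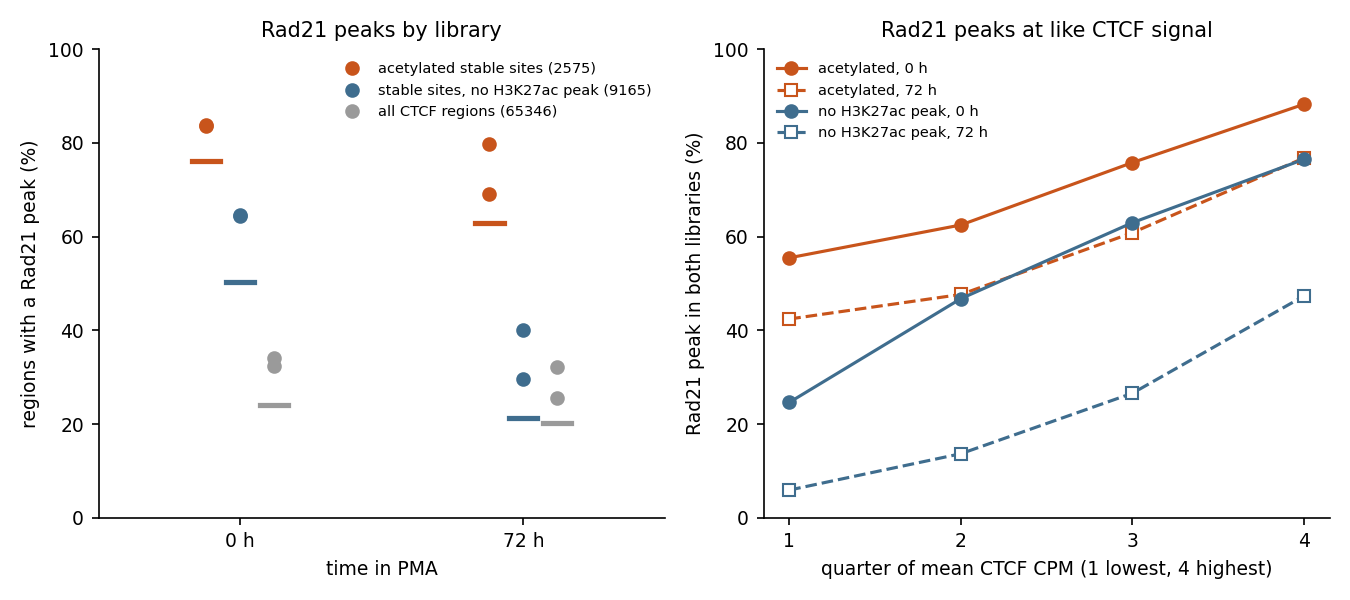
Share of CTCF regions that overlap a Rad21 peak, in percent. Left, points are single libraries and bars are peaks in both libraries of a time point; right, peaks in both libraries in 4 equal groups by mean CTCF CPM, where acetylated sites run from 55.5% to 88.3% at 0 h and unacetylated sites from 24.6% to 76.5%.

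Rad21 counts in the 2 kinds of site moved apart with time. The median Rad21 level per kilobase of region was 20.5 and 18.6 CPM at 0 h and 18.4 and 17.3 CPM at 72 h at acetylated stable sites. At unacetylated stable sites it was 16.1 and 15.0 CPM at 0 h and 12.03 and 11.9 CPM at 72 h. In edgeR's quasi-likelihood test with Benjamini-Hochberg adjustment over all 83750 tested Rad21 regions, a region was called at an adjusted p under 0.05, which 15.4% of regions were as higher at 72 h and 7.91% as lower. Of 2520 acetylated stable sites with a Rad21 region, 2512 were tested, and 181 (7.21%) rose and 234 (9.32%) fell. Their median log2 change was -0.12, against -0.05 over all regions and -0.39 at unacetylated stable sites, where 269 rose and 987 fell among 8070 tested. The share that rose was below the background, and the balance of rises and falls depended on the processing: DESeq2 called 110 higher and 79 lower, and leaving out Rad21 0 h replicate 1 gave 269 higher and 48 lower. Without 72 h replicate 1 there were 86 higher and 34 lower, and without 72 h replicate 2 there were 101 and 28. The difference in median change between acetylated and unacetylated stable sites, 0.28, ranged from 0.23 to 0.30 over the alternatives. At the 951 stable sites outside the rule, 77 of 917 tested rose (8.40%) and 113 fell (12.3%). Their median of -0.17 lay near that of the acetylated stable sites.

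Rad21 changes differed with the timing of acetylation. Over all tested Rad21 regions, 15.4% were called higher at 72 h and 7.91% lower. Among sites acetylated at 0 h only, 69 of 190 tested sites fell (36.3%) and 2 rose (1.05%), with a median log2 change of -0.60. The median Rad21 level of these sites was 14.5 and 12.5 CPM at 0 h and 8.93 and 8.29 CPM at 72 h, so both libraries at 72 h lay below both at 0 h. Among sites acetylated at 6 and 72 h, 35 of 192 rose (18.2%, near the share of all regions) and 7 fell (3.65%), with a median change of 0.18. Their median level was 11.3 and 11.6 CPM at 0 h and 13.4 and 12.4 CPM at 72 h, with both later libraries above both earlier ones. CTCF counts, whose peaks chose the sites, also differed between these 2 patterns from 0 to 72 h. At 0 h only, 31 of 203 sites were called lower and 0 higher (median log2 change -0.58). At 6 and 72 h, 6 of 194 were higher and 11 lower (median -0.22). Of all CTCF regions, 4.07% were called higher and 2.72% lower. The part of CTCF in the Rad21 differences was not tested.

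The other patterns lay between these. Sites acetylated at 0 and 6 h had 13 falls (15.5%) and 0 rises among 84 tested (median -0.31). Sites acetylated at 0 and 72 h had 24 falls (13.6%) and 7 rises (3.95%) among 177 (median -0.28). Sites acetylated at 6 h only had 12 rises (14.0%) and 8 falls (9.30%) among 86 (median -0.13). The pattern of 0, 6 and 72 h, with the most sites, had 49 rises (4.06%) and 82 falls (6.79%) among 1207 (median -0.11). That of 72 h only had 76 rises (13.2%) and 31 falls (5.38%) among 576 (median 0.01). Apart from the pattern of 6 and 72 h, the share of rises in every pattern lay below the 15.4% of all Rad21 regions. The pattern of 6 and 72 h had the highest median and that of 0 h only the lowest in the fit and in each of 10 alternative fits, and the difference between their medians was 0.78. With total count scaling the median of the 6 and 72 h pattern itself turned to -0.02. Sites whose CTCF summit lay inside the acetylated peaks had 138 rises (8.05%) and 135 falls (7.87%) among 1715. Those with the summit outside had 43 rises (5.40%) and 99 falls (12.4%) among 797. At gene starts 20 of 639 rose (3.13%) and 30 fell (4.69%), and away from them 154 of 1801 rose (8.55%) and 195 fell (10.8%).

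**Figure D3:**
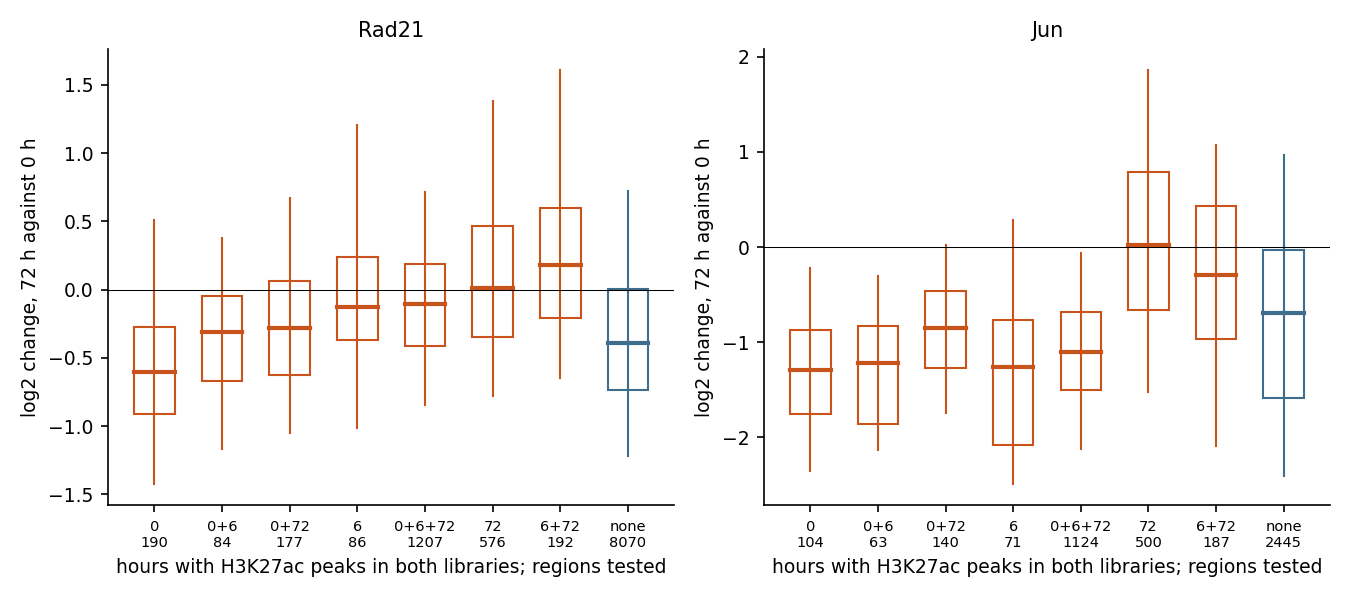
Log2 change from 0 to 72 h of Rad21 (left) and Jun (right) at tested sites, by the hours at which both H3K27ac libraries had a peak; "none" is stable sites with no H3K27ac peak. Boxes are quartiles with the median as a bar, lines run from the 5th to the 95th percentile, and the number under each label is the sites tested. Rad21 medians run from -0.60 (0 h only) to 0.18 (6 and 72 h).

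Named sites give the scale of single changes. The 4 sites with the largest called falls in Rad21 were all acetylated at 0 h only. The site near CBLIF (chr11:59822854-59823654), the gene of gastric intrinsic factor, measured 39.5 and 26.4 CPM of Rad21 at 0 h and 9.38 and 7.54 CPM at 72 h. The libraries of the 2 times did not overlap, and the log2 change was -1.96 ± 0.27 (SE; adjusted p = 3.1e-05). H3K27ac at this site went from 38.8 and 37.9 CPM at 0 h to 8.75 and 8.37 CPM at 6 h and 1.34 and 0.98 CPM at 72 h, while CTCF measured 41.3 and 37.5 CPM at 0 h and 26.0 and 27.7 CPM at 72 h. The site thus lost nearly all of its H3K27ac signal but kept a CTCF peak in every library, as the rule required. The sites near MS4A4E (chr11:60251390-60251901), a gene of the membrane-spanning MS4A family, near the pseudogene HORMAD1P1 (chr6:72579862-72580836) and in NEK5 (chr13:52127364-52128336), a kinase gene, had log2 changes of -1.80, -1.63 and -1.51, with adjusted p of 0.00066, 0.00045 and 0.00022. Without Rad21 72 h replicate 1 the fall near HORMAD1P1 was 1.09 and no longer called (adjusted p = 0.087).

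Of the 4 sites with the largest called rises in Rad21, that within CFAP45 had 72 h libraries that were alike. CFAP45 encodes a protein of cilia and flagella, and the site (chr1:159891124-159891964) was acetylated at 72 h only. Rad21 there measured 1.57 and 0.63 CPM at 0 h and 8.19 and 8.11 CPM at 72 h, a log2 change of 2.79 ± 0.47 (SE; adjusted p = 0.00021). Both later libraries lay far above both earlier ones, and the change was between 2.38 and 3.84 under the alternatives. The Rad21 values rest on counts of 10 and 3 at 0 h and 55 and 43 at 72 h. With so few counts at 0 h the size of the change is uncertain. CTCF measured 18.1 and 19.8 CPM at 0 h and 54.4 and 50.01 CPM at 72 h, and H3K27ac 9.82 and 9.17 CPM and then 52.8 and 59.4 CPM, so all 3 were higher in the later libraries.

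The other 3 rises rested on 1 library, Rad21 72 h replicate 2, and DESeq2 called none of them (adjusted p of 0.096, 0.13 and 0.12). Near the pseudogene CEACAMP5 (chr19:42663239-42663736) Rad21 measured 13.05 and 15.4 CPM at 0 h but 27.1 and 266 CPM at 72 h. Without that library the log2 change fell from 3.36 to 1.01 (adjusted p = 0.085). Near LOC105374141 (chr3:144799049-144799572) it fell from 3.02 to 0.75 (adjusted p = 0.23), and in WWOX (chr16:78574870-78575228), an oxidoreductase gene, from 2.62 to 1.07 (adjusted p = 0.19). The same sites had unequal libraries with other antibodies: near CEACAMP5 CTCF at 0 h measured 970 and 182 CPM, and H3K27ac 511 and 32.8 CPM. Of the 415 sites with a called Rad21 change, 3 had a 72 h library more than 4 times its partner. Unequal libraries make a call harder to reach, so this does not give the frequency of such inequality over all tested sites.

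Jun signal at these sites fell during treatment relative to Jun regions as a whole. Of 2200 acetylated stable sites with a Jun region, 2189 were tested. Between 0 and 6 h, 149 rose and 459 fell, where 13.1% of all 132947 tested Jun regions were called higher and 12.2% lower. Between 0 and 72 h, 181 (8.27%) rose and 1304 (59.6%) fell, where 28% of all regions were called higher and 25.7% lower. Between 6 and 72 h, 73 rose and 716 fell, where 12.7% of all regions were called higher and 13.5% lower. The median log2 change from 0 to 72 h was -0.87, against 0.17 over all Jun regions and -0.69 at unacetylated stable sites. Other stable sites shared the fall. Among 2445 tested unacetylated stable sites, 954 (39.0%) fell and 108 (4.42%) rose. Among 648 tested of the 951 stable sites outside the rule, 312 (48.1%) fell and 44 (6.79%) rose (median -0.84). The difference in median between acetylated and unacetylated stable sites, -0.18, turned to 0.81 at a mean count of at least 50. Setting the scale by total counts moved the median of all regions to 0.73 and that of the sites to -0.31, with 340 higher and 739 lower. Factors from the regions where all libraries had a peak (shared-region factors) moved them to 0.96 and -0.09, with 453 higher and 569 lower. Falls outnumbered rises under each scaling from 0 to 72 h, whereas from 6 to 72 h the shared-region factors turned the balance to 372 higher and 224 lower.

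The per-library medians use the scaling of the fit, so they restate the fall from 0 to 72 h and are not separate support for it. The median Jun level at the sites was 9.19 and 9.32 CPM at 0 h, 7.72 and 7.85 CPM at 6 h and 6.42 and 5.77 CPM at 72 h, and libraries of different times did not overlap. Of all Jun counts, these sites held 7.18% ± 0.418 at 0 h, 7.03% ± 1.79 at 6 h and 3.78% ± 0.147 at 72 h (SD, n = 2 each), so the 6 h libraries covered a range that held the 0 h mean. Left out, the 2 sites of very high signal described further on changed these shares to 6.15% ± 0.401, 6.07% ± 1.50 and 3.395% ± 0.141 (SD, n = 2). Peaks showed another course: Jun peaks in both libraries overlapped 42.4% of the sites at 0 h, 29.7% at 6 h and 63.5% at 72 h, and 19.1%, 14.1% and 29.5% of all CTCF regions. The Jun libraries held 31637 and 35072 peaks at 0 h, 23946 and 35376 after 6 h, then 92329 and 99102 after 72 h, and the part of these numbers in the shares was not tested. The mitochondrial share of Jun counts given above also fell with time, and its part in the Jun changes was not tested.

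The Jun fall differed between acetylation patterns, and the difference was not tested. From 0 to 72 h, 25.7% of all Jun regions were called lower and 28% higher. The fall was called at 870 of 1124 sites acetylated at 0, 6 and 72 h (77.4%), where 12 rose, and the median log2 change was -1.10. It was called at 80 of 104 sites acetylated at 0 h only (76.9%), where 0 rose (median -1.29). At sites acetylated at 6 h only it was called at 52 of 71 (73.2%), where 1 rose (median -1.26). Sites acetylated at 72 h only had 129 rises (25.8%) and 111 falls (22.2%) among 500 tested (median 0.02), both shares slightly below those of all Jun regions. Sites acetylated at 6 and 72 h had 38 rises (20.3%) and 63 falls (33.7%) among 187 (median -0.30). These last 2 medians were 0.58 and 0.26 with total count scaling and 0.80 and 0.49 with shared-region factors, so the sign of the second depends on the scale. The first also changed sign, to -0.07 with DESeq2, -0.08 with only the 2 time points, and -0.07 without Jun 72 h replicate 2. From 0 to 6 h, 13.1% of all Jun regions were called higher and 12.2% lower. Sites acetylated at 6 and 72 h had 49 rises (26.2%) and 10 falls (5.35%) over this interval (median 0.27). Sites acetylated at 0, 6 and 72 h had 29 rises (2.58%) and 331 falls (29.4%, median -0.43). At gene starts 472 of 582 tested sites fell from 0 to 72 h (81.1%) and 12 rose (2.06%). Away from them 799 of 1542 fell (51.8%) and 165 rose (10.7%).

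Large Jun rises from 0 to 72 h at single sites are shown by examples. The site in LOC107985256 (chr1:209576664-209577609), acetylated at 72 h only, measured 1.60 and 1.15 CPM of Jun at 0 h, 3.405 and 1.82 CPM at 6 h and 15.5 and 14.2 CPM at 72 h. The libraries stood in the order of time without overlap, and the log2 change from 0 to 72 h was 3.42 ± 0.32 (SE; adjusted p = 4.3e-08). Rad21 at this site measured 4.25 and 3.38 CPM at 0 h and 7.59 and 6.98 CPM at 72 h, a difference that did not pass the test (adjusted p = 0.070). In TMEM196 (chr7:19754451-19754989), a gene of a transmembrane protein, Jun rose by 2.81 on the log2 scale (adjusted p = 4.1e-07).

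The site near LOC105379048 (chr5:79857965-79858585) had already gained Jun by 6 h. Jun there measured 1.46 and 1.00 CPM at 0 h, 15.9 and 20.8 CPM at 6 h and 12.7 and 11.1 CPM at 72 h. Both later times lay far above 0 h, with log2 changes of 3.90 ± 0.33 (SE; adjusted p = 9e-08) and 3.26 ± 0.32 (SE; adjusted p = 7.3e-08). Its H3K27ac level went from 0.17 and 0.11 CPM to 16.1 and 18.7 CPM and then 26.1 and 26.7 CPM, the largest named gain of H3K27ac (log2 7.53). Rad21 rose from 8.65 and 9.50 CPM to 19.5 and 22.2 CPM (log2 1.20 ± 0.26, adjusted p = 0.0022), and CTCF measured 20.1 and 22.7 CPM at 0 h and 32.3 and 28.2 CPM at 72 h. Further large rises in Jun by 6 h were near FBXO34 (3.12), an F-box gene, in GNG8 (2.89), a G protein subunit gene, and in GPR107 (2.80), with adjusted p of 1.6e-06, 2.2e-07 and 3.7e-07.

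The largest called Jun falls had unlike histories. In LOC124902641 (chr11:17488062-17488413) Jun measured 45.8 and 43.0 CPM at 0 h, 60.6 and 48.4 CPM at 6 h and 6.32 and 4.03 CPM at 72 h. The 72 h libraries alone were low, and the log2 change was -3.10 ± 0.23 (SE; adjusted p = 5.2e-09). Rad21 there rose, from 44.7 and 53.6 CPM to 89.3 and 118 CPM (adjusted p = 0.0020), and CTCF was high at 6 h only, at 219 and 287 CPM against 46.4 and 64.6 CPM at 0 h. The site near TSC22D4-C7ORF61 (chr7:100450218-100450866) had fallen by 6 h, from 34.6 and 30.2 CPM to 5.90 and 10.4 CPM, and stood at 5.33 and 4.88 CPM at 72 h. In LAMTOR5-AS1 (chr1:110412455-110413444) the fall of 2.76 depended on the Jun region assigned, since the region of longest overlap gave -0.45 (adjusted p = 0.27). Near RPS18P4 (chr1:167599990-167600516) Jun measured 44.9 and 52.7 CPM at 0 h against 4.99 and 8.39 CPM at 6 h, and near SH2D1B (chr1:162391839-162392559), an adaptor gene of natural killer cells, 10.5 and 10.7 CPM against 1.36 and 2.92 CPM. Rad21 fell at both by 72 h, by 1.35 and 1.40 on the log2 scale (adjusted p = 0.00086 and 0.00021).

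**Figure D4:**
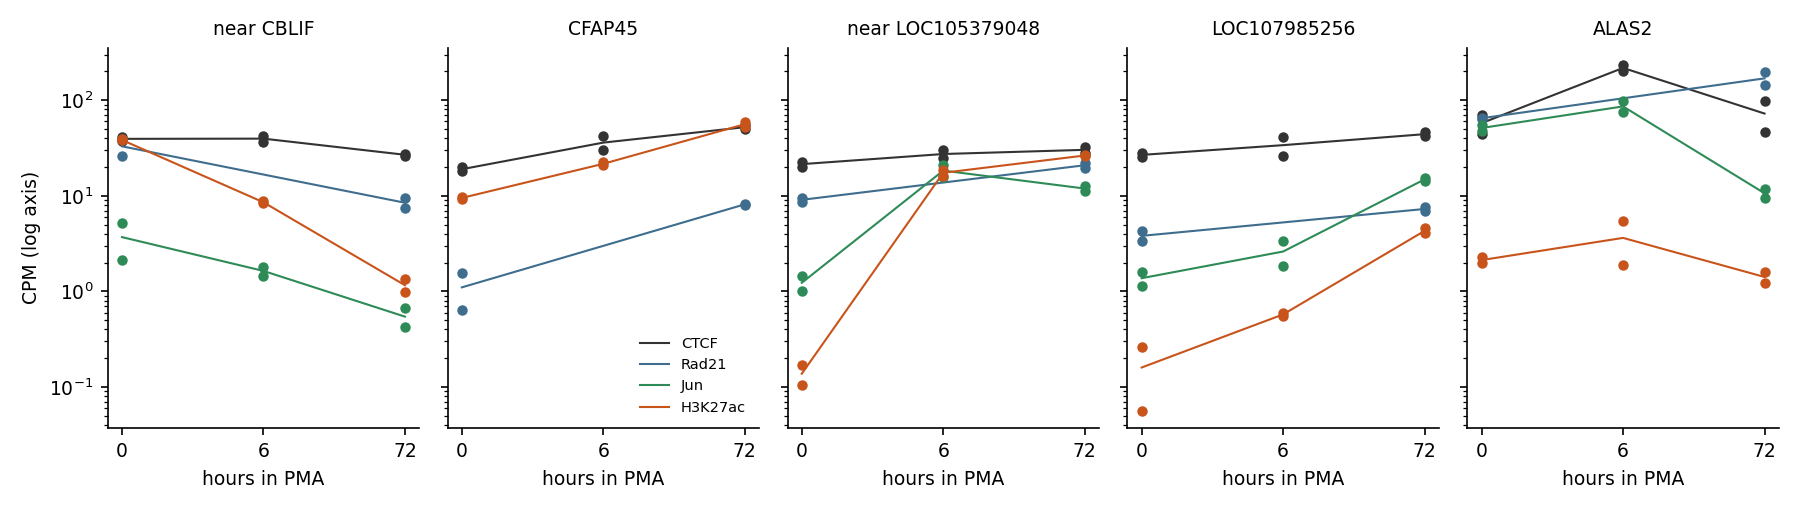
Level in CPM, on a log axis, of CTCF, Rad21, Jun and H3K27ac at 5 sites by hours in PMA, spaced evenly. Points are libraries and lines join group means; Rad21 has no 6 h library, and antibodies with no region at a site are left out. Jun at LOC107985256 climbs from 1.60 and 1.15 CPM to 15.5 and 14.2 CPM, while Rad21 near CBLIF drops from 39.5 and 26.4 CPM to 9.38 and 7.54 CPM.

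The 5 sites whose core sequences are printed above had no called Rad21 change, whichever way their acetylation went. At PRAME Rad21 measured 58.2 and 51.1 CPM at 0 h and 61.0 and 50.5 CPM at 72 h, with overlapping libraries (log2 0.03 ± 0.23 SE, adjusted p = 0.94), although H3K27ac went from 113 and 114 CPM to 62.2 and 63.8 CPM. At C1QBP, where the H3K27ac values are given above, Rad21 measured 6.13 and 4.64 CPM and then 5.66 and 7.54 CPM (adjusted p = 0.61). At KIF1B H3K27ac went from 7.33 and 8.17 CPM to 21.5 and 22.8 CPM. Rad21 there measured 15.7 and 12.5 CPM and then 14.0 and 16.0 CPM (adjusted p = 0.85). CTCF peaks chose the sites, so CTCF counts at the printed sites are given as a description only. At KIF1B CTCF measured 46.6 and 57.01 CPM at 0 h, 23.6 and 26.0 CPM at 6 h and 20.3 and 27.7 CPM at 72 h. The log2 changes from 0 h were -1.06 at 6 h and -1.10 at 72 h. At the other printed sites the CTCF change from 0 to 72 h ran from -0.60 at C1QBP to -0.17 at KATNBL1. None of the 5 passed the Rad21 test, with adjusted p of 0.78 at KATNBL1 and 0.26 at EHD2, which does not show that Rad21 stayed the same. Jun fell at the 3 of them with a tested Jun region, with log2 changes of -1.18 at KATNBL1, -0.95 at PRAME and -0.63 at KIF1B (adjusted p = 0.0041, 0.00038 and 0.0064).

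H3K27ac and CTCF peaks chose the sites, so their changes are given as a description only. For H3K27ac, 675 sites were called higher and 888 lower at 6 h against 0 h (32.3% and 26.3% of all 94865 tested regions). At 72 h against 0 h, 684 were higher and 1291 lower (43.4% and 38.1% of all regions), and at 72 h against 6 h 508 and 1105 (33.1% and 30.8%). With shared-region factors, the 72 against 0 h balance was 1119 higher and 693 lower, so its direction depends on the scale. The widest losses were near HORMAD1P1 (log2 -5.34), near ANO1 (-5.14), a chloride channel gene, and near CBLIF (-5.04). The widest gains, beside LOC105379048, were near LINC01989 (7.30) and in CIB4 (6.56), where Rad21 also rose, from 3.62 and 1.9 CPM to 16.7 and 10.7 CPM (adjusted p = 0.00014).

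CTCF counts at the sites were called higher at 35 and lower at 23 at 6 h against 0 h (2.33% and 0.325% of all 58156 tested regions). At 72 h against 0 h 37 were higher and 193 lower (4.07% and 2.72%), and at 72 h against 6 h 7 were higher and 33 lower (0.449% and 1.73%). The counts at 72 h were not stable: leaving out any 1 library of the 2 times left 3 to 27 calls, and total count scaling turned them to 58 higher and 44 lower. The median log2 change from 0 to 72 h, -0.34, was near that of unacetylated stable sites, -0.36. In SPATC1L (chr21:46184397-46184865), at the gene start, CTCF measured 95.3 and 158 CPM at 0 h, 35.9 and 24.8 CPM at 6 h and 19.6 and 14.3 CPM at 72 h. Rad21 at that site measured 19.97 and 32.1 CPM at 0 h and 30.8 and 25.6 CPM at 72 h, with overlapping libraries (adjusted p = 0.73). The largest named CTCF gains, in MIR3648-2 (chr21:8986778-8987543) and LOC110467529 (chr21:8259314-8260889), were each lost when either 0 h library was left out, and the second also without CTCF 72 h replicate 1 (adjusted p = 0.054), though Rad21 rose there by 1.88 and 2.00 on the log2 scale (adjusted p = 1.2e-05 and 6.3e-06). These 2 lie in repeated copies of the ribosomal RNA region on chromosome 21, where reads can be split between copies.

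Across sites, changes from 0 to 72 h in different antibodies were related to different degrees. Pearson's r was 0.712 (Spearman's rho 0.588) between H3K27ac and Jun over 2189 sites, and 0.438 (rho 0.399) between H3K27ac and Rad21 over 2512 sites. Between CTCF and Rad21 r was 0.501 (rho 0.475) over 2512 sites, and between Jun and Rad21 it was 0.228 (rho 0.151) over 2162. Between CTCF and H3K27ac it was 0.361 (rho 0.323) over 2575. These are correlations across sites, which are not independent replicates, and each antibody's values share its own libraries. The antibodies differ in depth, and the difference between these values was not tested.

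**Figure D5:**
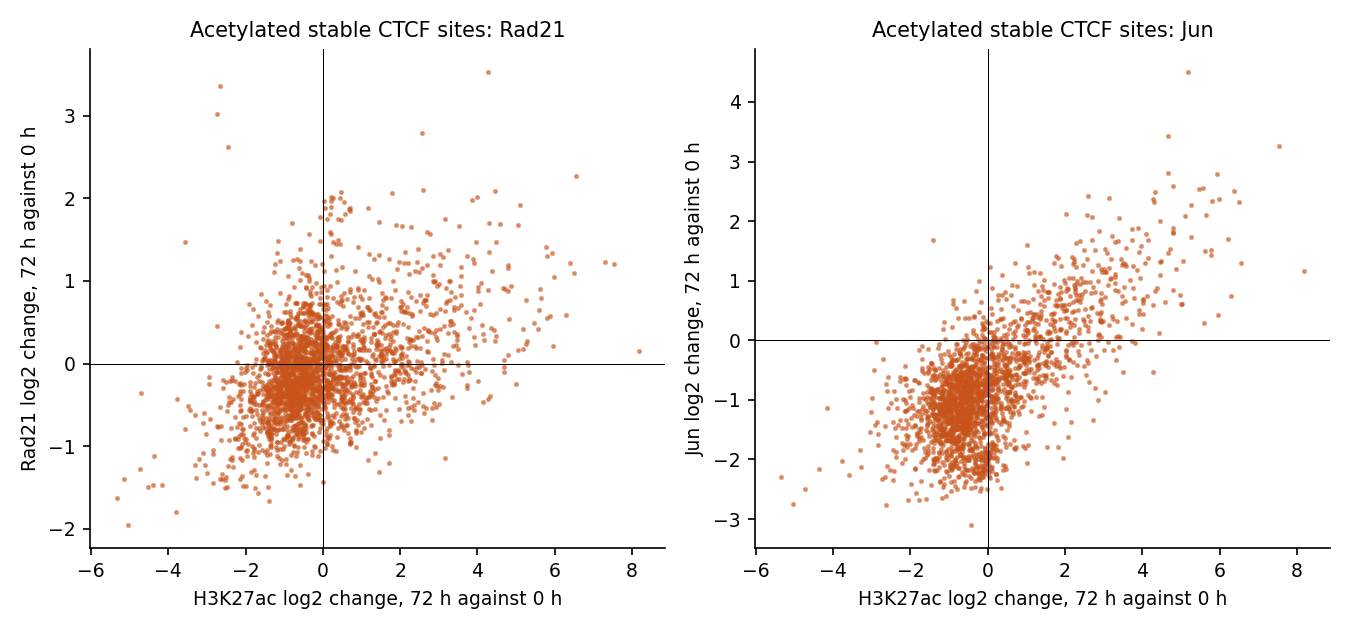
Log2 change from 0 to 72 h in H3K27ac (horizontal) against that in Rad21 (left, 2512 sites) and Jun (right, 2189 sites), 1 point per acetylated stable site. Pearson's r across sites is 0.438 for Rad21 and 0.712 for Jun.

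Genes of the erythroid, PMA and architecture lists held from 4 to 6 sites each, and the megakaryocyte and platelet list held 0. Over the genome, 1489 of 19974 protein-coding genes (7.45%) had an acetylated stable site within their span. In the erythroid list 6 of 30 genes did (KLF1, EPOR, ALAS2, EPB41, BCL2L1 and PIM1), in the megakaryocyte and platelet list 0 of 30, in the PMA and AP-1 list 4 of 30, and in the list of chromosome architecture genes 5 of 23 (CTCF, STAG1, PDS5A, CDCA5 and ESCO1). Rad21 changes passed the test at 1 of 6 tested erythroid sites, 1 of 4 PMA and AP-1 sites and 1 of 5 architecture sites, each as a rise, where 15.4% of all Rad21 regions and 7.21% of all tested acetylated stable sites were called higher. Jun from 0 to 72 h fell at 4 of 5 tested erythroid sites, 1 of 3 PMA and AP-1 sites and 5 of 5 architecture sites, and rose at 1 PMA and AP-1 site. Among all tested acetylated stable sites 59.6% were called lower, and among all Jun regions 25.7%.

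The erythroid site with a Rad21 rise was in ALAS2 (chrX:55025803-55026182), the gene of the first enzyme of heme synthesis in red cells, with H3K27ac peaks in both libraries at 6 h only. H3K27ac counts there were low, at 1.99 and 2.27 CPM at 0 h, 5.39 and 1.87 CPM at 6 h and 1.23 and 1.60 CPM at 72 h. The 0 and 6 h libraries overlapped and the change was not called (adjusted p = 0.10), so the counts do not show a gain at 6 h. Rad21 measured 65.9 and 63.5 CPM at 0 h and 142 and 196 CPM at 72 h. The 2 times did not overlap (log2 1.38 ± 0.23 SE, adjusted p = 0.00020). Jun at the ALAS2 site measured 47.5 and 54.8 CPM at 0 h, 97.2 and 75 CPM at 6 h and 11.8 and 9.46 CPM at 72 h. It thus fell below its starting level (log2 -2.27 ± 0.21 SE, adjusted p = 3.7e-08) after a rise at 6 h of 0.75 (adjusted p = 0.0077), which was lost when Jun 0 h replicate 1 was left out (adjusted p = 0.11). CTCF was also highest at 6 h, at 202 and 233 CPM against 44.6 and 70.4 CPM at 0 h and 46.3 and 98.6 CPM at 72 h. Jun fell in KLF1 (chr19:12885082-12885911), an erythroid transcription factor gene, from 9.33 and 10.0 CPM to 3.85 and 3.10 CPM (adjusted p = 7.0e-05). It also fell in EPB41 and BCL2L1, genes of the red cell membrane skeleton and of cell survival, with log2 changes of -1.40 and -1.39 (adjusted p = 6.4e-06 and 1.6e-05). In the kinase gene PIM1 the change was -0.33 (adjusted p = 0.21), and the site in EPOR, the erythropoietin receptor gene, was not tested for Jun.

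ATF3, a stress-induced transcription factor gene of the ATF family, had a site (chr1:212595612-212596592) acetylated at 6 and 72 h where Rad21 and Jun rose. Rad21 measured 11.01 and 16.04 CPM at 0 h and 28.0 and 30.4 CPM at 72 h (log2 1.12 ± 0.26 SE, adjusted p = 0.0032). Jun measured 28.3 and 26.1 CPM at 0 h, 44.7 and 61.1 CPM at 6 h and 50.1 and 49.5 CPM at 72 h, with the 0 h libraries below the rest (log2 0.87 from 0 to 72 h, adjusted p = 0.00075). At JUND, the gene of an AP-1 subunit, Rad21 changed by -0.33 on the log2 scale (adjusted p = 0.45).

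Among genes of chromosome architecture, the site at the start of the CTCF gene itself (chr16:67562012-67563049) had Jun of 24.6 and 22.6 CPM at 0 h and 8.84 and 8.45 CPM at 72 h (adjusted p = 2.8e-06). Rad21 there measured 20.9 and 20.1 CPM at 0 h and 19.2 and 19.6 CPM at 72 h, a log2 change of -0.08 ± 0.24 (SE; adjusted p = 0.84). Jun also fell in STAG1, a cohesin subunit gene (-1.32), and in PDS5A (-1.92) and ESCO1 (-1.47), genes of a cohesin regulator and a cohesin acetyltransferase, with adjusted p of 9.1e-05, 0.0024 and 7.3e-06. Shared-region factors left the falls in STAG1 and PDS5A uncalled, with adjusted p of 0.051 and 0.053. The PDS5A fall was also lost without Jun 0 h replicate 2 (adjusted p = 0.072) and without Jun 72 h replicate 1 (adjusted p = 0.058). The site over CDCA5, the gene of sororin, which locks cohesin on sister chromatids, and NAALADL1 (chr11:65060965-65061485) had Rad21 of 18.2 and 14.1 CPM at 0 h and 55.7 and 72.0 CPM at 72 h. The later libraries lay above the earlier ones (log2 1.97 ± 0.25 SE, adjusted p = 1.2e-05), whereas its Jun fall of 0.86 was lost under both other scalings (adjusted p = 0.29 and 0.82) and without Jun 0 h replicate 2 or 72 h replicate 1 (adjusted p = 0.089 for each).

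The sites of highest CTCF signal stood apart from the rest. The site near RNU6-488P (chr3:93470291-93470885) measured 9435 and 9705 CPM of CTCF at 0 h, 19320 and 9650 CPM at 6 h and 10745 and 9034 CPM at 72 h, against a median site of 29.9 CPM. Those near EMBP1 (chr1:125178886-125180719) and ANKRD26P1 (chr16:46398391-46401603) followed, with 3649 and 2687 CPM and 2962 and 2418 CPM at 0 h. All 3 lie near centromeres, where repeated sequence can gather reads of several copies. Jun fell at each from 0 to 72 h, by 1.99, 1.88 and 2.14 on the log2 scale (adjusted p = 2.4e-05, 4.4e-05 and 1e-05), while Rad21 did not pass the test at any (adjusted p = 0.55, 0.41 and 0.63). In all, 2 sites had over 10 times the median level with all 4 antibodies, and they held 13.4% of the Jun, 13.2% of the Rad21, 8.66% of the CTCF and 1.08% of the H3K27ac signal of the 2575 sites.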

How the data were processed

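The 22 libraries were grouped from their titles. Per the submitters' processing notes, reads were handled with Trim Galore 0.4.3, BWA 0.7.17, SAMtools 1.9, MACS2, bedtools 2.26 and deepTools 3.0.1; the notes name both hg19 and hg38, and contig names and lengths in the tables are those of GRCh38. Each deposited region table lists whole-number read counts, not normalized, for every library of 1 antibody. The deposited peak lists, 1 per library, give fold enrichment as a ratio and a −log10 q-value for each peak, used only to filter or describe peaks.

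Counts were tested with edgeR 4.0.16 (R 4.3.3) on each whole table: filterByExpr, TMM scaling, glmQLFit and glmQLFTest over all time points, no replicate block, Benjamini-Hochberg adjustment and a threshold of 0.05. SE is the log2 change divided by the square root of F. CPM use TMM-scaled totals of region counts. Overlaps were found with GenomicRanges 1.54.1 (at least 1 bp); each site took the overlapping region of another antibody with the highest mean CPM. Starts are printed 1-based. Scripts were tested on simulated counts.

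Alternatives were DESeq2 1.42.0, other scalings and filters, a replicate block, other overlap and peak rules, and leaving out each library. Leaving out the 2 sites of very high signal was chosen after seeing the data. The sites, gene lists and markers were chosen with earlier results of these data known. Named sites had the largest or smallest log2 changes among called sites with a mean CPM at or above the median of tested regions and both libraries of 1 time above both of the other. The rule took 4 each way for Rad21 at 72 h and Jun at 6 and 72 h, 3 for H3K27ac and 2 for CTCF, then the 3 sites with the highest CTCF CPM and up to 3 per gene list. KLF1, EPOR, PIM1, STAG1 and CDCA5 fall outside this rule and were named after their values were seen. Gene names and sequences came from RefSeq tables of GRCh38.p14 without exons or strand for spans; the 75 sites on a chromosome outside the promoter table were counted but not named. With 2 libraries per group, single outlying libraries cannot be identified by rule. Results at some named genes are not reported here.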

Additional observations from a re-analysis of the deposited data

How the results depend on the processing

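Over the comparisons, 142 of the recomputed values stayed near the main value. For calls this meant a similar total with the same majority, and for medians and peak shares a difference below the SD between libraries. With the direction kept, 23 moved further, 12 call totals became smaller and 5 larger, while 19 values turned direction. The causes were not tested, apart from fewer regions or libraries in some. The 230 CTCF calls at 72 against 0 h became 102 (58 higher) with total count scaling, 164 (111 higher) with factors from the regions where all libraries had a peak (shared-region factors), 115 with DESeq2, 62 (42 higher) at a mean count of at least 50, 737 with only the 2 time points, and 3 to 27 without 1 library. The 40 at 72 against 6 h became 47 (32 higher), 16 (11 higher), 5 at a mean count of at least 50, 14 with only the 2 time points, and 5 to 185 without 1 library, and the 58 at 6 against 0 h became 4 to 187. With a replicate block, CTCF calls became 475 and 80, and Rad21 calls 565 (237 higher). Same-numbered libraries correlated at -0.022 to 0.124 in their deviations over all tested regions, many with low counts. These values do not settle whether the numbers pair the libraries.

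H3K27ac calls turned mostly higher at 6 h with total counts (1559, 1075 higher) and with shared-region factors (1556, 1096 higher), and with the latter also at 72 against 0 h (1812, 1119 higher) and 72 against 6 h (1450, 770 higher). The 789 Jun calls at 72 against 6 h became 489 with total counts, 596 with shared-region factors (372 higher), 501 with DESeq2 and 270 to 760 without 1 library. The 415 Rad21 calls became 189 (110 higher) with DESeq2, 359 (206 higher) with no filter, and 120 to 519 without 1 library. The Jun median of acetylated minus unacetylated sites, -0.18, became 0.81 at a mean count of at least 50, and the Jun difference between sites acetylated at 6 and 72 h and at 0 h only, 0.99, became 1.32. Jun at LAMTOR5-AS1, 6 against 0 h, became 0.18 by longest overlap, and at EMBP1 (0.04) it ran from -0.68 without Jun 6 h replicate 1 to 0.42 without Jun 6 h replicate 2.

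With peaks of −log10 q at least 10, 1090 sites remained; Rad21 shares became 50.4% and 31.1%, and Jun shares 30.3%, 17.8% and 44.5%. With a peak in either library, Rad21 shares were 91.2% and 85.9%, and Jun shares 56.6%, 46.8% and 75.8%. With at least 0.5 of the shorter interval overlapped, Rad21 at 0 h was 75.03% and Jun at 72 h 58.4%. With 1 library left out, Rad21 shares were 83.5% to 83.8% and 69.0% to 79.8%, and Jun shares 47.7% to 51.3%, 32.8% to 43.7% and 69.0% to 70.3%. Within 1 kb of a gene start lay 31.1% of sites. Depth limits all antibodies; the lowest median was 34 counts per site, in a Jun 6 h library.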
